A study of Rattus norvegicus with 6 samples.

Results

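Quinones, reactive carbonyls and epoxides are electrophilic products of drug and diet metabolism, and the proximal tubule of the kidney meets many of them. Reductases turn quinones into hydroquinones and carbonyls into alcohols, aldehyde oxidase turns aldehydes and some ring compounds into acids and lactams, and epoxide hydrolases open epoxides with water. Several of these genes are textbook targets of NRF2, the transcription factor that is released from KEAP1 under oxidative and electrophilic stress and binds antioxidant response elements.

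The values below are those of 10 such genes, Nqo1, Nqo2, Cbr1, Cbr3, Akr7a3, Akr1b10, Aox1, Ephx1, Ephx2 and Pir, out of 15645 genes that the probe accessions named. They were chosen by function and selected on the treated against control contrast of these same arrays. Their differences are therefore given as a description. Counts of limma calls among them describe that same contrast and are no independent test. All 18 probes of the 10 genes were well above background on all 3 arrays of at least 1 group, and none was left out.

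The tissue was kidney cortex, taken as total RNA from male rats of the Sprague-Dawley stock Crl:CD(SD), bought at 5 weeks of age and dosed for 4 weeks. The 3 control animals received corn oil, and the 3 treated animals received 4-hydroxy-m-phenylenediammonium dichloride at 100 mg/kg/day. The compound is the salt of a diaminophenol that oxidises readily. The labels give no vehicle for it, and the study used 1 dose and 1 time. Each animal had 1 single-colour (Cy3) array, and the design text calls the animals biological replicates. A level is the log2 signal of a probe minus the 75th percentile of its array, and a difference is the treated mean minus the control mean on that log2 scale. The number of arrays limits the precision.

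Of the 61537 probes, 63.1% to 67.7% passed the scanner flag for a signal well above background in controls and 68.9% to 69.6% in treated animals. Slide and scan coincided with the groups, with the controls on slide 1 and the treated animals on slide 2, so for every difference below the slide and the treatment cannot be told apart. Added control transcripts had a median difference of -0.16 after the same scaling. Markers of the early proximal tubule had mean levels of 6.23 to 6.37 in controls and 6.08 to 6.15 in treated animals, with 10 of 10 above background, and Anpep and Aqp1 were called lower. Mean levels of distal convoluted tubule markers were 2.79 to 3.14 in controls and 2.47 to 2.65 in treated animals, and those of collecting duct principal cell markers were 3.74 to 3.94 and 3.60 to 3.71. Their part in the differences below was not tested. Control replicate 3 stood apart in the mean level of hepatocyte markers, at 1.06 over 7 tested genes against -2.15 to -1.39 in the other 5 animals. Alb was at 3.89 there against -1.49 to -0.029. Not every marker set it apart. Fga was at 0.81 there against 0.51 to 0.99 in the other 5, and Apob at -0.20, below the 0.34 of treated replicate 1. Alb, Fga and Apob are named after their values were seen. Markers of the straight proximal tubule ranged from 1.41 in treated replicate 2 to 3.21 in control replicate 2. Red blood cell markers were at 0.80 to 0.90 in controls and 1.45 to 2.58 in treated animals. Of these, 7 of 8 were higher without overlap between groups, beside 14.1% of all genes tested. Gata1, 1 of the 7, was the only one of these called. It had 0 of 3 control arrays above background, so its call and its lack of overlap rest on control levels that were not measured. S100g of the distal tubule was called lower. Cd3e was above background on 1 of 3 control arrays, and Pvalb, Tat, Star, Cyp11b1 and Mc2r did not pass the filter on dim probes. In bulk tissue, more cells of a type and more RNA per cell cannot be told apart.

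The promoters of Pir, Ephx1 and Nqo1 are printed because these genes had the 3 largest differences among the 10, and because the first 2 hold the core of the element that NRF2 binds. They were picked with the differences and the matches known. The other windows, among them that of the first Ephx1 start, are not printed. The windows are those of RefSeq for the build GRCr8, from 250 bases before to 50 after the annotated start, written 5′ to 3′ on the strand of the gene. Pir lies at chrX:33851000-33851299 on the minus strand, the second of the 2 annotated Ephx1 starts at chr13:95263068-95263367 on the minus strand, and Nqo1 at chr19:52220218-52220517 on the minus strand. Capitals mark matches to the antioxidant response element core TGACNNNGC, which was searched on both strands.
Pir: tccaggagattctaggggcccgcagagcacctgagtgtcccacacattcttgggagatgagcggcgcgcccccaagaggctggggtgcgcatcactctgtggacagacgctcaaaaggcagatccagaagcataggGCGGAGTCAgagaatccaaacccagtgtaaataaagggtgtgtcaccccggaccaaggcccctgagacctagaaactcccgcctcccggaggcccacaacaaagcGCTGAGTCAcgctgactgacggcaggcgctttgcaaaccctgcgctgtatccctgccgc
Ephx1: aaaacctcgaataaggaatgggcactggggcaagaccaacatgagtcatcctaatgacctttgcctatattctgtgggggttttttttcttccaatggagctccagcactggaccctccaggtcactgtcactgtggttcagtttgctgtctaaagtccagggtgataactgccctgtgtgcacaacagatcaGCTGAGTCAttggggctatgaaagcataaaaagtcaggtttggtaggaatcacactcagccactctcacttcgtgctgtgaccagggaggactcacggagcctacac
Nqo1: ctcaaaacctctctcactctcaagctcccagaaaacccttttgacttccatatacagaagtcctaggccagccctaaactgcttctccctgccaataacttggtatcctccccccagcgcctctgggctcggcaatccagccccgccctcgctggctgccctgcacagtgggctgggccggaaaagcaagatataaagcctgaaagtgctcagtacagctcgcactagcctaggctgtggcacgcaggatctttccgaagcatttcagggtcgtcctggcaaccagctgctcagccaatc

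Pir, the gene of the iron-binding nuclear protein pirin, had 2 matches, at bases -114 to -106 and -9 to -1 from the start. Ephx1 had 1 match at bases -57 to -49 of its second start and none at the first. All 3 matches lay on the strand opposite to the gene. The Ephx1 match and the Pir match next to the start also hold the letters TGACTCA of the AP-1 element, with which the core overlaps. The core was found in 2 of the 10 windows of 9 member genes, against 12.1% of all 33469 windows of 300 bases. The core of the xenobiotic response element bound by the aryl hydrocarbon receptor, TNGCGTG, was found in 1 member window, that of Nqo2, at bases -52 to -46, against 4.89% of all windows. A match is a run of letters and was not tested for binding, and its absence concerns only these 300 bases.

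**Figure D1:**
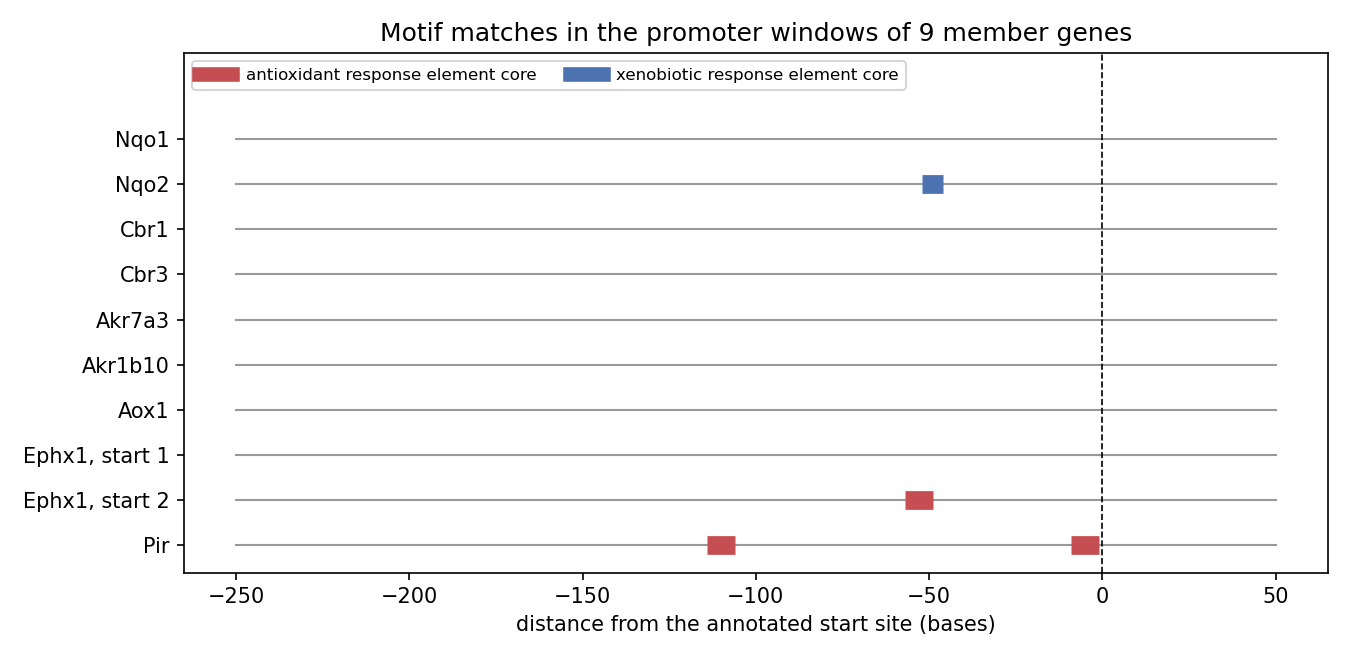
Positions of motif matches along the promoter windows of 9 member genes, in bases from the annotated start site (dashed line). Red blocks are matches to the antioxidant response element core, 2 in Pir and 1 at the second Ephx1 start, and the blue block is the xenobiotic response element core in Nqo2.

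Among the 10 genes, 4 were higher in all 3 treated animals than in the highest control: Nqo1, Pir, Ephx1 and Akr7a3. Over all genes tested, 14.1% were higher without overlap. Nqo2 and Cbr3 were lower in all 3 treated animals than in the lowest control at their brightest probes, where 18.7% of all genes were, and the other 4 genes overlapped. With limma, the same 4 genes passed an adjusted p under 0.05 as higher, beside 3.03% of the 12130 genes tested, and 0 of 10 passed as lower, beside 1.33%. The 4 calls became 3 without treated replicate 1 and 0 without any other single animal, and 1 with no filter on dim probes. They were 3 with median scaling or with the mean of a gene's probes. Since the genes were selected on this contrast, nothing is read from these counts. The median difference was 0.23 over the 10 genes and -0.030 over all genes tested.

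**Figure D2:**
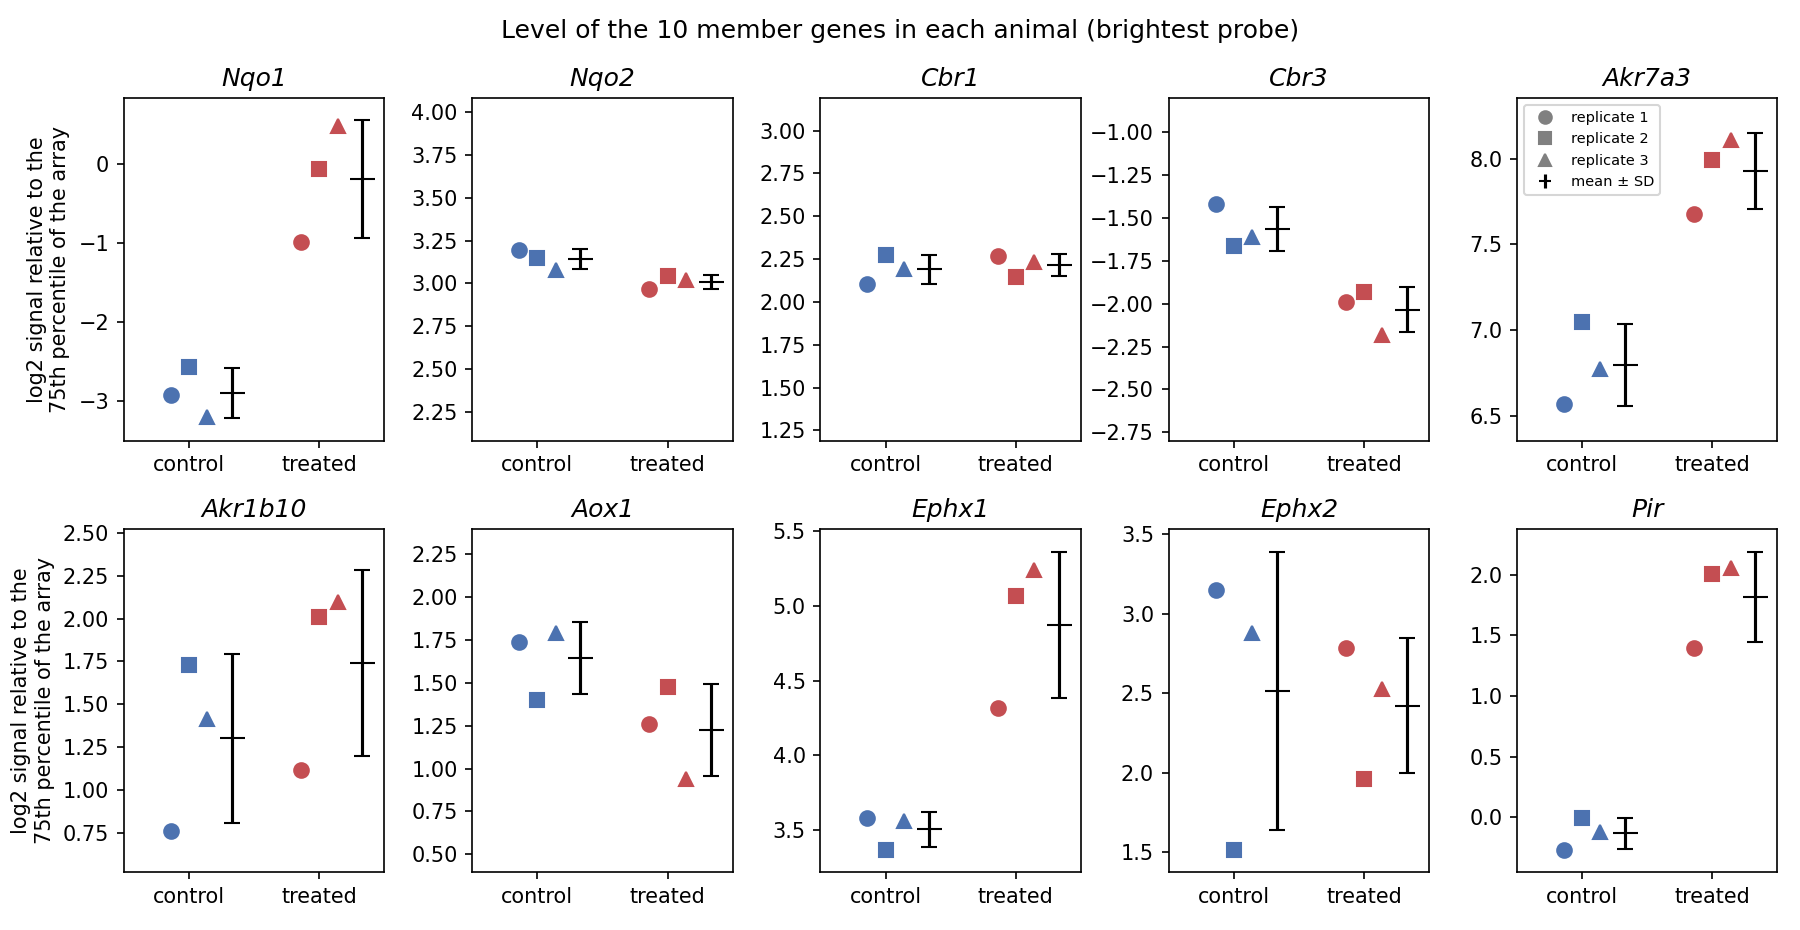
Level of the 10 member genes at the brightest probe, on the scaled log2 scale defined above, in 3 control animals (blue) and 3 treated animals (red), with the mean and SD of each group in black. Scales differ between panels and each spans at least 2 log2 units. In the panels of Nqo1, Akr7a3, Ephx1 and Pir all treated animals lie above all control animals.

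Of the quinone reductases, Nqo1 had a large difference and Nqo2 a small one. Nqo1 encodes the NAD(P)H quinone reductase that turns quinones into hydroquinones without a semiquinone step. Its levels were -2.93, -2.57 and -3.21 in the control animals and -0.99, -0.062 and 0.49 in the treated animals. Every treated animal was far above every control, and treated replicate 1 was the lowest of its group. The means were -2.91 ± 0.32 and -0.19 ± 0.75 (SD, n = 3 each), a difference of 2.72 (SE 0.41) or 6.58-fold, and 7 of 12130 genes had a larger one. That rank describes the contrast on which the gene was selected. The larger differences include that of Gclm, which was above background on 0 of 3 control arrays. The dimmer Nqo1 probe gave -4.33, -4.69 and -4.71 in controls and -2.72, -1.72 and -0.99 in treated animals, a difference of 2.76 (SE 0.45). With the normexp background model and an offset of 50, the 2 differences were 2.12 and 1.74.

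Nqo2 encodes the related reductase that uses dihydronicotinamide riboside in place of NADPH. It was at 3.19, 3.15 and 3.08 in controls and at 2.97, 3.04 and 3.02 in treated animals. The groups did not overlap, yet the difference was only -0.13 (SE 0.073), and the other probe gave -0.14 (SE 0.069). With the normexp background they were -0.27 and -0.17. Genes of like signal, in the same of 10 equal bins, had a median difference of -0.073, and the added control transcripts -0.16, without that background model.

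Pir, whose protein also cleaves the flavonol quercetin, was at -0.27, -0.0097 and -0.13 in controls and 1.39, 2.01 and 2.06 in treated animals. Again no treated animal reached down to a control, and treated replicate 1 was lowest. The difference was 1.96 (SE 0.20) or 3.88-fold, with means of -0.14 ± 0.13 and 1.82 ± 0.37 (SD, n = 3 each). The dimmer probe had a difference of 2.25 (SE 0.24) from -3.11 ± 0.24 to -0.86 ± 0.41, and 1.60 with the normexp background.

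Among the carbonyl reductases, the short-chain dehydrogenases Cbr1 and Cbr3 did not follow Nqo1. Cbr1, which reduces quinones, prostaglandins and anthracycline drugs, was at 2.10, 2.27 and 2.19 in controls and 2.27, 2.15 and 2.23 in treated animals. The groups lay on top of each other, and the 3 Cbr1 probes had differences of 0.025, 0.061 and -0.013 (SE 0.083, 0.081 and 0.085). At the brightest probe the difference was 0.14 with the normexp background and -0.0082 with median scaling. Cbr3, a close relative with a narrower range of substrates, was at -1.42, -1.66 and -1.61 in controls and -1.99, -1.93 and -2.18 in treated animals. The brightest probe thus separated the groups, with a difference of -0.47 (SE 0.11) or 1.39-fold lower. The other Cbr3 probe did not, at -2.53, -2.60 and -2.31 against -2.57, -2.46 and -2.70, a difference of -0.099 (SE 0.12), or -0.012 without control replicate 3 and -0.037 without treated replicate 3. The probes of Cbr3 therefore disagree in size, and close relatives such as Cbr1 and Cbr3 may share signal.

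The aldo-keto reductases differed from each other. Akr7a3 encodes the rat aflatoxin aldehyde reductase, which reduces dialdehydes. It was at 6.57, 7.05 and 6.77 in controls and 7.68, 7.995 and 8.11 in treated animals. All treated animals were above all controls, and treated replicate 1 was again lowest. The difference at its only probe was 1.13 (SE 0.17) or 2.19-fold, from 6.80 ± 0.24 to 7.93 ± 0.22 (SD, n = 3 each). In the brightest of the 10 bins of signal, where the probe lies, the median difference was -0.095 and 26.0% of genes had a positive one.

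Akr1b10, which reduces retinal and aliphatic aldehydes, was at 0.76, 1.73 and 1.41 in controls and 1.12, 2.01 and 2.10 in treated animals. The groups overlapped, and replicate 1 was the lowest animal in both. The difference was 0.44 (SE 0.37), and 0.38 (SE 0.34) at the other probe. It was 0.17 without control replicate 1 and 0.75 without treated replicate 1, and at the other probe 0.018 without control replicate 1 and 0.67 without control replicate 3.

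Aox1 encodes aldehyde oxidase, a molybdenum and flavin enzyme of the cytosol. It was at 1.74, 1.40 and 1.79 in controls and 1.26, 1.47 and 0.94 in treated animals. Only control replicate 2 lay within the treated range, and both probes gave a like value, -0.42 (SE 0.18) and -0.43 (SE 0.19), or 1.34-fold and 1.35-fold lower. Without treated replicate 3 they were smaller, at -0.28 for each probe. The brightest probe gave -0.35 without control replicate 3, in which the mean of the liver markers was high, and -0.54 without control replicate 2 or treated replicate 2.

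The epoxide hydrolases also split. Ephx1, the microsomal enzyme that hydrolyses epoxides of foreign compounds, was at 3.58, 3.37 and 3.56 in controls. It was at 4.31, 5.07 and 5.24 in treated animals, all above the controls, with treated replicate 1 lowest. The difference at its only probe was 1.37 (SE 0.26) or 2.58-fold, and it was 1.40 without control replicate 3. The control spread was an SD of 0.12 and the treated spread an SD of 0.49.

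Ephx2, the soluble enzyme that hydrolyses epoxides of fatty acids, was at 3.15, 1.52 and 2.88 in controls and 2.78, 1.96 and 2.53 in treated animals. Replicate 2 was the lowest animal in both groups, and the groups overlapped. The difference was -0.093 (SE 0.48). It turned to 0.22, 0.090 and 0.14 without control replicate 1, control replicate 3 or treated replicate 2, and was -0.59 without control replicate 2. A spread like this within controls was uncommon: 1.99% of genes tested had a larger control SD than the 0.88 of Ephx2, and the median over all genes was 0.105. For Akr1b10, with a control SD of 0.49, the share was 5.97%.

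**Figure D3:**
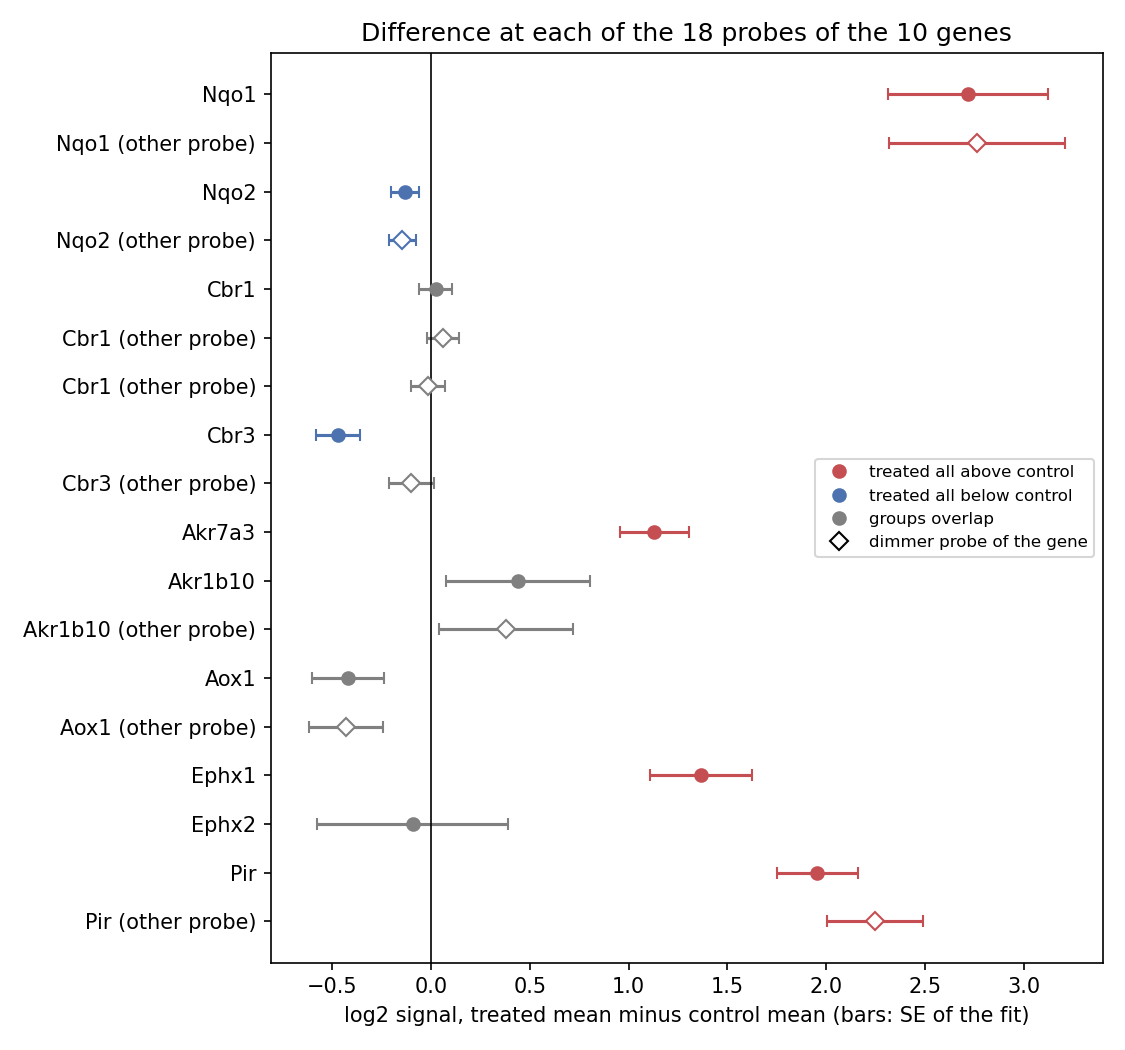
Difference between the treated and control means (log2 signal, horizontal axis) at each of the 18 probes, with the SE of a fit over all probes. Filled circles are the brightest probe of a gene and open diamonds the dimmer ones, and colour shows whether the groups overlapped. Both probes of Nqo1 (2.72 and 2.76) and of Pir (1.96 and 2.25) lie far to the right, while the Cbr1 probes sit within 1 SE of 0.

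In each of the 4 genes that were higher without overlap, treated replicate 1 had the smallest increase over the control mean and treated replicate 3 the largest. For Nqo1 the values relative to the control mean were 1.92, 2.84 and 3.40 in treated replicates 1, 2 and 3, and for Pir 1.53, 2.14 and 2.20. Ephx1 gave 0.81, 1.56 and 1.73, and Akr7a3 0.88, 1.20 and 1.31. The red blood cell markers had their lowest treated mean, 1.45, in replicate 1 as well, beside 2.41 and 2.58 in replicates 2 and 3. Their part in these differences was not tested. The genes with the most alike pattern over the 6 animals, by the root mean square difference at the brightest probe after each gene was set relative to its control mean, were Gstp1, Csmd1 and Cd52 for Nqo1 (0.42, 0.51 and 0.53 log2 units). For Ephx1 they were Ppm1j, Tex19.2 and Cdc25b (0.13, 0.13 and 0.15), and for Pir they were Rgs11 and Gstp1 (0.19 and 0.24). The third for Pir, Gata1, was above background on 0 of 3 control arrays, so its likeness has no measured control level and is not given. Csmd1 was above background on 1 of 3 control arrays, so its distance and rank are uncertain. The animals are the same and the measure is dominated by the difference between groups.

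**Figure D4:**
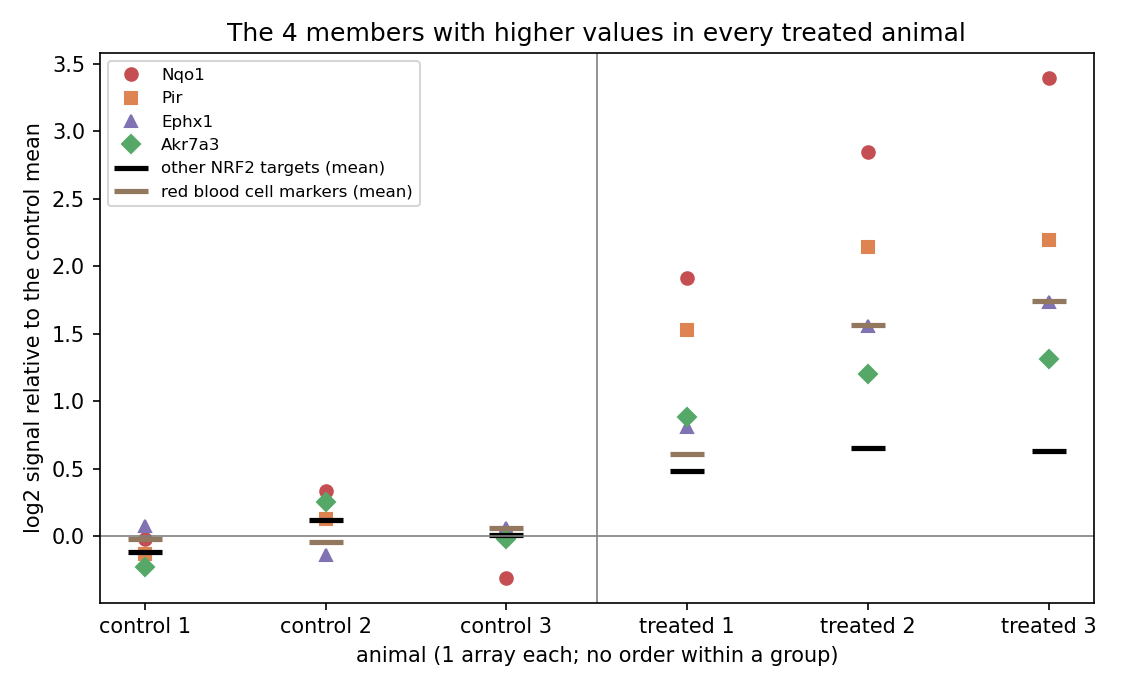
Log2 signal relative to the control mean in each of the 6 animals for Nqo1, Pir, Ephx1 and Akr7a3, with the mean of 39 other NRF2 targets (black bars) and of 8 red blood cell markers (brown bars). Treated replicate 1 is the lowest treated animal in all 4 genes, and Nqo1 reaches 3.40 in treated replicate 3.

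Relatives in the same enzyme families, named here after their values were seen, were set beside the members. Akr1b8, an aldose reductase relative of Akr1b10, was at -0.12, 0.50 and 0.48 in controls and 1.85, 4.45 and 3.75 in treated animals. No treated animal overlapped a control, and the difference of 3.07 (SE 0.67) was 8.37-fold, but it did not pass limma over all genes (adjusted p = 0.063). Akr1b1, the aldose reductase itself, differed by 0.060 (SE 0.16), and Akr7a2, the relative of Akr7a3, by -0.11 (SE 0.061). Cbr4, a carbonyl reductase of mitochondria, had a difference of 0.34 (SE 0.078, limma adjusted p = 0.069), opposite in sign to Cbr3. Ephx4 had one of -0.11 (SE 0.10). Members of the Akr1b and Akr1c families are close in sequence and their single values are uncertain to that extent.

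**Figure D5:**
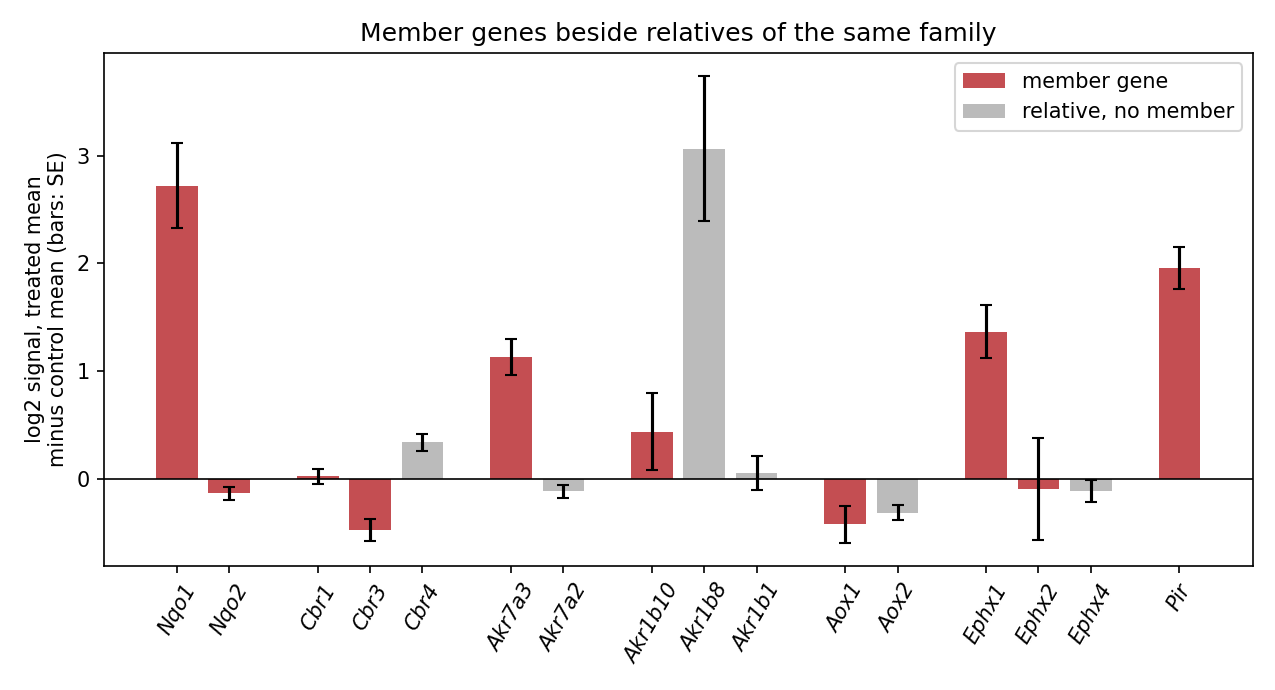
Difference between the treated and control means (log2 signal) at the brightest probe of each member gene (red bars) and of relatives in the same family (grey bars), with the SE of the fit over genes. Akr1b8 has the tallest bar at 3.07 with the widest error, and within each family the tall bar of Nqo1, Akr7a3 or Ephx1 stands beside relatives near 0.

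Of 40 other quinone, carbonyl and aldo-keto reductase genes listed, 32 were tested, and 1 was called higher, 0 lower and 31 not called. Over all genes tested, 3.03% were called higher and 1.33% lower, so 1 of 32 is near the share of all genes. With limma, the unadjusted p was under 0.05 for 4 that were higher and 2 that were lower, beside 3034 of all 12130 genes tested, both directions together. The called gene was Cryz, a quinone oxidoreductase also known as zeta-crystallin. Its levels were 2.86, 3.04 and 2.72 in controls and 3.62, 3.48 and 3.71 in treated animals, a difference of 0.73 (SE 0.10, 1.65-fold, limma adjusted p = 0.031). Without treated replicate 1 the list again had 1 call, and without any other single animal it had 0. The median difference over the 32 genes was -0.025.

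For epoxide hydrolases and molybdenum enzymes outside the 10 genes, 12 of 17 were tested and limma called 0. Over all genes tested it called 3.03% higher and 1.33% lower. The unadjusted limma p was under 0.05 for 1 higher and 2 lower, beside 3034 of all 12130 genes tested, both directions together. The median difference over the 12 genes was -0.025. The smallest p belonged to Aox2, an aldehyde oxidase relative, with a difference of -0.31 (SE 0.070, limma adjusted p = 0.066), and to Mocs3, which serves molybdenum cofactor synthesis, with 0.24 (SE 0.071, limma adjusted p = 0.117). Ephx3, Aox3 and Aox4 did not pass the filter on dim probes.

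Among other NRF2 targets, most did not pass the test. Of 41 listed genes, 39 were tested, 7 were called higher, 0 lower and 32 not called, beside 3.03% called higher and 1.33% lower over all genes. The unadjusted limma p was under 0.05 for 21 higher and 0 lower, beside 3034 of all 12130 genes tested, both directions together. The median difference over the 39 genes was 0.33. Without overlap 20 were higher and 0 lower, beside 14.1% and 18.7% of all genes tested. The list was drawn up with earlier results of these arrays known and is not independent evidence of its direction. Among the calls with measured control levels, the largest differences were those of the glutathione S-transferase Gstm1 (3.84, SE 0.31, limma adjusted p = 0.014) and Gstp1. Gclm, also among the 7 calls, encodes a subunit of glutamate-cysteine ligase. It was well above background on 0 of 3 control arrays and passed the filter only through the treated animals. Its call therefore rests on control levels that were not measured. Its treated level was at least 2.81-fold higher, counting each control value at no less than the lowest signal above background on its array. Gstp1 differed by 2.29 (SE 0.20, limma adjusted p = 0.015), the efflux pump Abcc4 by 1.14 (SE 0.15, limma adjusted p = 0.029), and Htatip2 by 0.94 (SE 0.12, limma adjusted p = 0.027). These values are those of the brightest probes. Their other probes gave 3.12 and 2.97 for Gstp1, 0.90 to 1.28 for Abcc4 and 0.80 for Htatip2. These 7 calls fell to 0 without any 1 animal other than treated replicate 1, and to 3 without that one.

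The regulators themselves did not pass. Of 16 genes for NRF2, its partners and inhibitors, and the aryl hydrocarbon receptor with its targets, 12 were tested and limma called 0. Over all genes tested it called 3.03% higher and 1.33% lower. The unadjusted limma p was under 0.05 for 0 higher and 2 lower, beside 3034 of all 12130 genes tested, both directions together. Keap1, the inhibitor that holds NRF2, had a difference of -0.16 (SE 0.056, limma adjusted p = 0.151). Nfe2l2, which encodes NRF2, had one of -0.21 (SE 0.083, limma adjusted p = 0.188) at its brightest probe. The other Nfe2l2 probe gave -0.012, so its probes disagree in size. Cyp1a1, Cyp1a2 and Cyp1b1, the classic aryl hydrocarbon receptor targets, did not pass the filter on dim probes.

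Over all 12130 genes, limma called 368 higher and 161 lower, or 449 and 496 with the normexp background, and 3034 had an unadjusted p under 0.05. Without single animals the calls ran from 0 to 45 higher and 0 to 2 lower: they were 0 and 0 without control replicate 1, treated replicate 2 or treated replicate 3, 0 and 1 without control replicate 2 or control replicate 3, and 45 and 2 without treated replicate 1. Without 1 animal, the size of the difference ranged from 2.38 to 3.12 for Nqo1, 1.84 to 2.17 for Pir, 1.18 to 1.65 for Ephx1 and 1.02 to 1.26 for Akr7a3.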

How the data were processed

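The spot files come from Agilent Feature Extraction, version 10.7.1.1 per the file headers and 10.7 per the submitters' processing notes. The deposited intensity of a spot is, per the file headers, a background-subtracted, detrended Cy3 signal of a design tied to rn4. The deposited value table is a linear ratio, which followed that signal over the 75th percentile of the array (median of one over the other 0.998 at values of 1 or more, compared here). Column medians ran from 0.105 to 0.110. Centring and direction beyond this comparison are not given in the sources used here.

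Levels are log2 signals minus the 75th percentile over 61537 non-control probes. Outlier spots, 1 to 3 per array, were left out. No spot was saturated. Probe accessions matched to a RefSeq table of GRCr8 named 28206 probes. Probes that either group had above background on all 3 of its arrays were kept, a gene being its brightest one, and 12130 genes were fitted with limma 3.58.1 in R 4.3.3, with Benjamini-Hochberg adjustment and a threshold of 0.05. The SEs of member probes come from a fit over all probes. The script was tested on simulated data.

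The members and lists were chosen with earlier results of these data known. Genes named are the 10 members, up to 5 called genes of each list per direction (or the 2 with the smallest p), the 3 with the most alike pattern for Nqo1, Ephx1 and Pir (provisional LOC and RGD symbols left out), and markers called or dim. Exceptions are said to be so. Alternatives were other scalings (quantile, median), a normexp background (offset 50) on median signals, other filters on dim probes, the value table, the replicate block, an intensity trend, averaging over the probes of a gene, a 2-fold limit and leaving out each array. Protein comparisons were not made here.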

Additional observations from a re-analysis of the deposited data

How the results depend on the processing

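Of 180 recomputed differences over the 18 probes, 175 moved by less than 1 SD between replicates, and the other 5 moved further, all with the normexp background. No gene called higher changed sign, and the 9 sign changes were at Cbr1 and Ephx2. Leaving out 1 array gave 4 to 5 of the 10 genes higher and 2 to 4 lower without overlap. Akr1b10 joined the higher ones without treated replicate 1, and Aox1 the lower ones without treated replicate 2. Aox1 and Ephx2 joined the lower ones without control replicate 2. The shares over all genes, 14.1% higher and 18.7% lower, are for the full set of arrays and were not recomputed here. Groups separate more easily with fewer arrays, so nothing is read from these additions. Counts of calls over all genes (368 higher, 161 lower) were 47 and 9 with a 2-fold limit, 37 and 7 with no filter on dim probes, 229 and 63 with the mean of a gene's probes, 496 lower with normexp and 395 lower with an intensity trend. The share of calls that were higher was 69.6% as reported, 47.5% with normexp, 52.8% with the trend, 84.1% with no filter and 78.4% with the mean of probes. Other reductases called higher (1) were 0 with the 2-fold limit or no filter, and 3 higher and 1 lower with normexp or the trend. Other NRF2 targets called higher (7) were 4 with the 2-fold limit, 2 with no filter and 11 with the trend. With normexp 1 gene was called lower among epoxide hydrolases and molybdenum enzymes and 1 among regulators. Leaving out 1 array gave 0 to 45 higher and 0 to 2 lower over all genes, 0 to 1 other reductases and 0 to 3 NRF2 targets. The cause was not tested. Of the 10 members, 4 were called as reported, 3 without treated replicate 1 and 0 without any other 1 array, 1 with no filter, 3 with median scaling or the mean of probes, and with normexp 4 higher and 1 lower, Cbr3.

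With the replicate block, limma called 0 genes higher and 0 lower, 0 other reductases and 0 NRF2 targets, and 2546 had an unadjusted p under 0.05. Same-numbered animals had correlations of deviations of -0.12, -0.11 and 0.089, and differently numbered ones had -0.088 to 0.21. The labels give no pairing, and with 3 animals per group these values cannot settle whether the numbers pair the samples. A slide or scan block could not be fitted, because each slide held 1 group. The differences of the dim Nqo1 and Pir probes depend on the background model, as their values with normexp show.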
